A study of Mus musculus with 12 samples.

Results

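The 200 peaks with the highest mean accessibility were taken from an ATAC-seq table of 60072 peaks. They were selected on the level itself, as the 200 peaks with the highest mean RPKM (reads normalized to peak width and to the size of the library) over all 12 libraries, so that their height is a description and was not tested. They made up 0.333% of the peaks and 0.548% of the listed length (166943 bp), and all 200 passed the minimum on low values that 57576 of the 60072 peaks passed.

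ATAC-seq reads pile up where a transposase can reach DNA, chiefly at promoters and enhancers that are free of nucleosomes. Very high narrow peaks can also form where many near-identical copies of a sequence in the genome are represented by few copies in the assembly, because reads of all copies are then placed on the few. Mouse chromosomes have the centromere at one end, and satellite repeats lie there in long arrays that the assembly leaves out almost entirely. Which of these kinds a given peak belongs to cannot be read from its height, and no genome or annotation of the build of the files (mm9) was used here, so peaks are given by position, without a gene or repeat name and without their sequence.

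The cells were bone marrow progenitors from wild-type mice or from HMGN1-OE mice, which carry a transgene for human HMGN1, a protein that binds nucleosomes. Both kinds of culture carried ER-HoxB8, a retroviral fusion of the estrogen receptor and HoxB8 that keeps progenitors immature and dividing while estradiol (E2) is present. Wild-type and HMGN1-OE cells were taken at 0 h, in E2, and 96 h after E2 withdrawal, which made 4 groups of 3 libraries. The labels describe the replicates of a group as biologically independent. The number of immortalized lines behind each genotype is not given in the sources used here, so that genotype and the source of the cells cannot be told apart.

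Reads were recovered from the RPKM values, and the library totals were 21581528 to 35560463 reads. Between 24.7% and 50% of a library lay in the listed peaks, with the highest share in wild-type replicate 1 at 96 h (50%, against 35.1% and 39.7% in the other 2 of its group) and the lowest in HMGN1-OE at 96 h (24.7% to 29.5%). Values are therefore given on 2 scales. RPKM as deposited is relative to the library total. Scaled RPKM was further divided by a factor (trimmed mean of M values, TMM) that sets the typical peak equal between libraries. Changing from scaled to deposited values moved the median log2 fold change of all tested peaks from -0.03 to 0.21 for HMGN1-OE against wild-type at 0 h, from 0.02 to -0.48 at 96 h, from -0.01 to 0.21 for 96 h against 0 h in wild-type cells and from 0.00 to -0.53 in HMGN1-OE cells. Directions that depend on this choice are named as such below. Ratios between peaks of the same library do not depend on it.

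The levels fell steeply over the first ranks and then flattened. The highest peak, chr17:39980030-39985693, had a mean of 3323 RPKM, rank 25 had 215.3 and rank 200 had 92.8. The highest and the lowest of ranks 1 to 25 differed 15.4-fold, and those of the last 100 ranks differed 1.22-fold. Most peaks of the steep part were narrow. The median width was 372 bp in ranks 1 to 25, of which 15 were under 400 bp, and 847 bp in the last 100 ranks, of which 5 were. The peaks outside the 200 had a median width of 429 bp. The highest peak was not narrow and was also the widest of the 200 at 5664 bp.

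**Figure D1:**
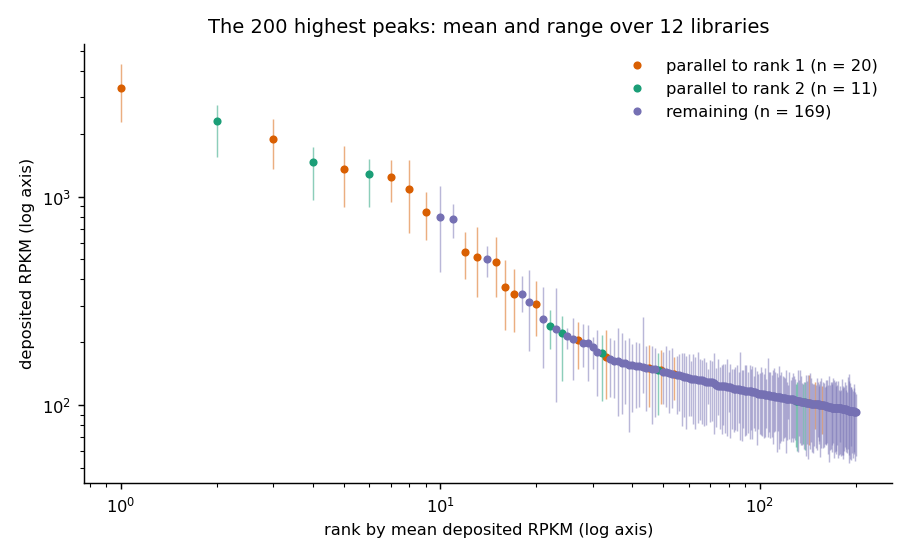
Deposited RPKM (y axis, logarithmic) against rank by mean RPKM (x axis, logarithmic) for the 200 peaks. Points are means over the 12 libraries, vertical lines run from the lowest to the highest library, and colours mark the profiles described in the text; levels fall from 3323 at rank 1 to 215.3 at rank 25 and then flatten towards 92.8 at rank 200.

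The limit at rank 200 lay in the flat part and separated near-equal values. Rank 200, chr9:21350334-21351265, had a mean of 92.8 RPKM (57.0 to 112.9 over the libraries), and rank 201, chr1:133423112-133424868, had 92.6 (59.8 to 113.1). The 2 ranks before had means of 92.9 and 92.9, and the 2 ranks after had 92.3 and 92.2. The membership of the upper ranks rested on every library. Of the first 25 peaks, 24 were among the 200 highest of each single library. Over all ranks, a single library's own 200 highest peaks shared 170 to 181 with the 200, and 125 peaks were in the highest 200 of all 12 libraries. Choosing by the median in place of the mean kept 192.

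The peaks were spread over the genome, and only a minority stood together. They lay on 20 chromosomes, most often on chromosome 7 (23 peaks), chromosome 11 (20) and chromosome 9 (19). The 184 windows of 200 kb that held any of them held 1 in 174 cases, 2 in 8 cases, 3 in 1 case and 7 in 1 case. Of the 200 peaks, 16 lay within 1 Mb of the first listed peak of their chromosome, as did 1.23% of all listed peaks. Among the 16 were the 7 members of 1 window at the start of chromosome 9 and rank 23 near it, so they do not represent as many separate places. The median distance to the nearest other member was 2.10e+06 bp, and 14 members had no listed peak of any kind within 50 kb.

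Windows rich in listed peaks did not all contain high ones. The window chr9:3000001-3200000 held 21 listed peaks, of which 7 were among the 200. By contrast, chr5:15000001-15200000 held 23 listed peaks and none of the 200, its highest mean being 3.22 RPKM, and chr8:19800001-20000000 held 32 and none of the 200, its highest mean being 33.2 RPKM (rank 2593). A description of the 200 peaks as filling repeat-like windows therefore applied to the first of these windows and not to the other 2, and 174 of the 200 stood alone in their window.

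In the chromosome 9 window, 20 of the 21 peaks formed a close series at the very start of the assembled chromosome, from 3000004 to 3038227, and the last peak lay apart at 3199125-3199953 with a mean of 3.23 RPKM. The series began with chr9:3000004-3001520 (rank 48, 147.0 RPKM). Its highest peak was chr9:3025191-3025943 (rank 32, 177.1 RPKM), and the other members were at ranks 59, 130, 131, 137 and 139. Peaks of the series outside the 200 had means of 18.8 to 90.8 RPKM. The only other window with 3 members was on chromosome X (chrX:166400001-166600000), where 13 peaks were listed and the highest was chrX:166428959-166429678 (rank 39, 156.1 RPKM). Close pairs occurred elsewhere too, as 15 members lay within 10 kb of another, among them ranks 2 and 6, chr2:98506405-98507475 and chr2:98502399-98503096.

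The 200 peaks took between 10.1% and 16.2% of all reads in peaks, and 3.90% to 5.36% of the library totals. Their share of the reads in peaks at 0 h was 11% ± 0.70 for wild-type and 10.7% ± 0.53 for HMGN1-OE (mean ± SD of 3 libraries). At 96 h it was 12.9% ± 2.2 for wild-type and 15.8% ± 0.42 for HMGN1-OE. At 0 h the genotypes overlapped, whereas at 96 h every HMGN1-OE library (15.3%, 15.8% and 16.2%) lay above every wild-type library (10.5%, 13.5% and 14.7%). The lowest wild-type value belonged to replicate 1, the library with 50% of reads in peaks, and without it the group mean was 14.1%. As a share of the library total, the order of the 96 h groups was the opposite, with 5.15% to 5.36% in wild-type and 3.90% to 4.62% in HMGN1-OE libraries. By counting error alone, such a share was known to ± 0.03 percentage points or better (Wilson 95% interval).

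Few peaks accounted for most of these reads. Summed over the libraries, the highest peak held 41.2% of the reads in the 200, and ranks 1 to 25 held 61.1%. The highest peak alone took 3.31% to 3.92% of all reads in peaks in wild-type libraries at 0 h, 4.01% to 4.46% in HMGN1-OE libraries at 0 h, 4.37% to 6.99% in wild-type libraries at 96 h and 7.16% to 7.65% in HMGN1-OE libraries at 96 h. The difference between the 2 times came from the upper ranks. Ranks 26 to 200 took 4.93% to 5.42% in wild-type cells at 0 h, and between 4.21% and 4.91% in the other 9 libraries.

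**Figure D2:**
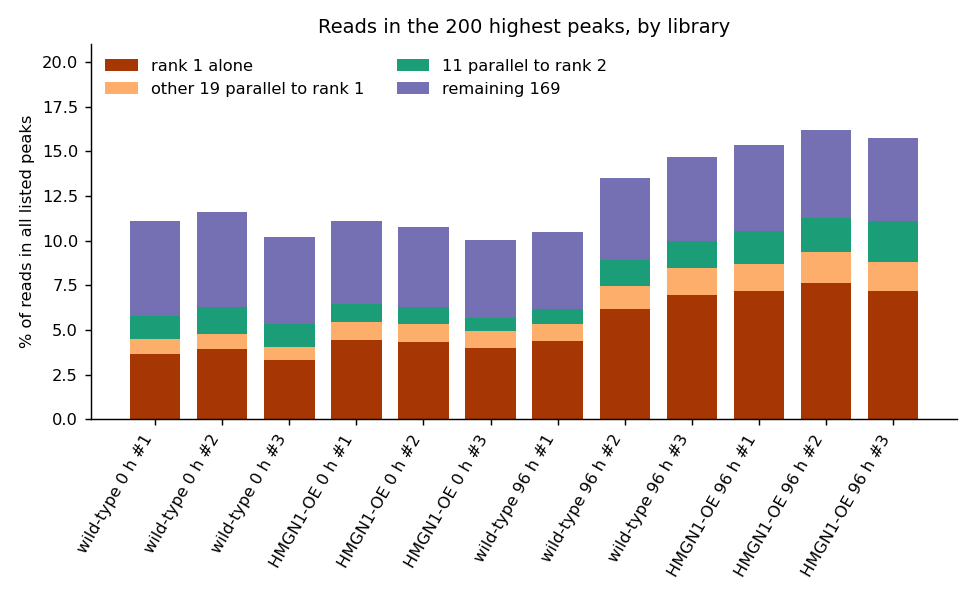
Percent of the reads in all listed peaks (y axis) that fell in the 200 peaks, stacked by profile, for each of the 12 libraries (x axis). The bars reach 10.1% to 11.6% at 0 h and up to 16.2% in HMGN1-OE at 96 h, and most of the growth is in the part of the highest peak and those parallel to it, while the part of the peaks parallel to rank 2 also grows in HMGN1-OE, from 0.73% to 0.96% at 0 h to 1.82% to 2.27% at 96 h, and that of the remaining 169 stays between 4.26% and 5.35%.

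Within a library, the highest peaks stood in nearly fixed proportions, and these proportions divided the top ranks into separate profiles. The ratio of rank 6 to rank 2 on chromosome 2 was 0.561 on average and stayed between 0.550 and 0.571 over all 12 libraries, a coefficient of variation (CV) of 1.19%. Rank 4, chr9:35112804-35113176 on another chromosome, stood at 0.637 of rank 2 (0.606 to 0.663, CV 2.91%). Likewise rank 5, chr3:5860341-5860825, stood at 0.405 of rank 1 (0.386 to 0.417, CV 2.83%), rank 3, chr11:108872960-108873414, at 0.572 (0.544 to 0.605, CV 4.05%) and rank 20, on chromosome 6, at 0.0916 (CV 1.95%). Ratios across the 2 profiles did not hold in this way.

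The ratio of rank 2 to rank 1 separated the genotypes at 0 h with no scaling involved. It was 0.939, 1.01 and 1.03 in wild-type libraries and 0.585, 0.594 and 0.499 in HMGN1-OE libraries. At 96 h it was 0.540, 0.639 and 0.591 in wild-type and 0.680, 0.671 and 0.830 in HMGN1-OE libraries. The groups did not overlap at either time, and the order of the genotypes at 96 h was the opposite of that at 0 h. Rank 2 was thus the highest peak of all in wild-type replicates 2 and 3 at 0 h, and rank 1 was in the other 10 libraries. Ratios were looked at after the values had been seen and were given no test.

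**Figure D3:**
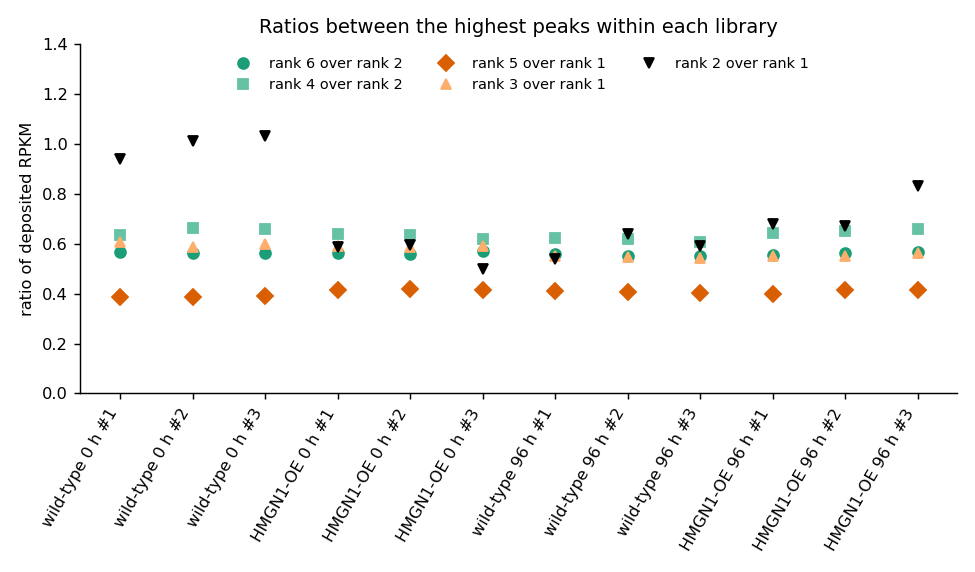
Ratio of deposited RPKM (y axis) between pairs of the highest peaks in each library (x axis). Rank 6 over rank 2 (0.550 to 0.571), rank 4 over rank 2, rank 5 over rank 1 and rank 3 over rank 1 are nearly level over the 12 libraries, and rank 2 over rank 1 runs from 1.03 down to 0.499.

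Peaks were grouped by a CV of their ratio to rank 1 or to rank 2 under 10%, a limit set after the values had been seen. With it, 20 of the 200 peaks were parallel to rank 1 (itself included) and 11 were parallel to rank 2, with none in both, and 169 remained. Of the 59872 peaks outside the 200, 11 were parallel to rank 1 and 15 to rank 2. The median ratio CV was 7.03% for pairs within the rank 1 profile, 6.31% within the rank 2 profile, 28.9% for pairs with 1 peak in each, and 9.53% for pairs of the remaining 169. The peaks of a profile were chosen to rise and fall with rank 1 or rank 2 over these same libraries. They are therefore not independent observations, and counts over them describe 1 pattern each.

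The 20 peaks parallel to rank 1 were mostly narrow and, by the median, stood further from other listed peaks than the remaining 169. They lay on 13 chromosomes, and 14 of them were under 400 bp wide (median 361 bp). Their median distance to the nearest listed peak was 27471 bp, against 7756 bp for the remaining 169, and 8 of the 20 had none within 50 kb. Of the first 25 ranks, 12 belonged to this profile, among them ranks 1, 3, 5, 7, 8 and 9. The 11 peaks parallel to rank 2 lay on only 4 chromosomes. They were ranks 2 and 6 on chromosome 2, rank 4 and 6 of the 7 members of the chromosome 9 window, chr12:3109875-3110109 (rank 24) and chr6:103599064-103599286 (rank 22). The seventh member of the window, chr9:3035645-3036749, had a ratio CV of 11.2%, and 11 of the 15 outside peaks parallel to rank 2 lay in the same window.

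Most peaks parallel to rank 1 were higher after E2 withdrawal, in wild-type cells on both scales and in HMGN1-OE cells after scaling. Rank 1 itself had 2509, 2444 and 2280 RPKM in wild-type libraries at 0 h, 3168, 3142 and 3108 in HMGN1-OE libraries at 0 h, 3861, 4316 and 4325 in wild-type libraries at 96 h and 3728, 3853 and 3144 in HMGN1-OE libraries at 96 h. On this scale wild-type cells at 0 h were lowest in every library, and HMGN1-OE replicate 3 at 96 h (3144) lay within the range of HMGN1-OE at 0 h. In wild-type cells, rank 1 rose over the 96 h by 0.79 on the log2 scale as deposited (adjusted p = 2.61e-12) and by 0.52 ± 0.165 (SE) after scaling (adjusted p = 0.0164). In HMGN1-OE cells it rose by 0.18 as deposited (adjusted p = 0.0189) and by 0.84 ± 0.165 after scaling (adjusted p = 0.00103). Between the genotypes at 0 h, rank 1 passed the test as deposited (0.38 higher in HMGN1-OE, adjusted p = 0.000109) but not after scaling (0.07, adjusted p = 0.807), and at 96 h the sign itself depended on the scale (-0.22 as deposited and 0.39 after scaling).

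In wild-type cells the other peaks of this profile rose as well, with 2 exceptions after scaling. They were chosen for a near-constant ratio to rank 1 over these same libraries. The counts below therefore restate the rise of rank 1 and are not separate support. Rank 3 had 1363 to 1519 RPKM in wild-type libraries at 0 h and 2125 to 2353 at 96 h, and rank 5 had 889.6 to 969.6 and 1584 to 1753. In wild-type cells 18 of the 20 rose over the 96 h after scaling (median 0.50), against 33.2% of all tested peaks, and all 20 as deposited (median 0.77), against 37.1%. In HMGN1-OE cells all 20 rose after scaling (median 0.82), against 32.0% of all tested peaks, but only 6 as deposited (median 0.17), against 18.4%, and ranks 3 and 5 were among those that did not pass (0.10 and 0.16, adjusted p = 0.24 and 0.066). Relative to the median of all tested peaks, the profile in wild-type cells was 0.51 higher after scaling and 0.56 higher as deposited. In HMGN1-OE cells the corresponding differences were 0.82 and 0.70. After scaling, 0 of the 20 passed the test of a different change over time in the 2 genotypes (median 0.35), against 11.0% of all tested peaks with a more positive and 6.1% with a more negative change in HMGN1-OE cells. As deposited, all 20 had a more negative change in HMGN1-OE cells (median -0.57), as had 46.0% of all tested peaks.

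The peaks parallel to rank 2 were lowest in HMGN1-OE progenitors at 0 h. Rank 2 had 2356, 2477 and 2355 RPKM in wild-type libraries at 0 h, 1853, 1865 and 1552 in HMGN1-OE libraries at 0 h, 2084, 2759 and 2554 in wild-type libraries at 96 h and 2535, 2585 and 2609 in HMGN1-OE libraries at 96 h. On this scale the 3 HMGN1-OE libraries at 0 h were below all 9 others, whereas after scaling wild-type replicate 1 at 96 h (1421 scaled RPKM) lay among them (1215 to 1648). The fall relative to wild-type at 0 h was -0.45 as deposited (adjusted p = 9.08e-05) and -0.76 ± 0.22 after scaling (adjusted p = 0.0295). This genotype call did not hold under every scaling tried, and neither did those of ranks 4 and 6. Over the 96 h, rank 2 rose in HMGN1-OE cells by 0.56 as deposited (adjusted p = 2.44e-07) and by 1.21 ± 0.22 after scaling (adjusted p = 0.00068). In wild-type cells the difference did not pass the test on either scale (0.03 and -0.24), and the change over time differed between the genotypes on both (0.53 with adjusted p = 0.000605, and 1.45 ± 0.31 with adjusted p = 0.0101).

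In the chromosome 9 window this pattern was larger. Its highest member, chr9:3025191-3025943, had 189.6, 216.0 and 200.3 RPKM in wild-type and 137.8, 134.5 and 104.2 in HMGN1-OE libraries at 0 h, and 147.9, 194.7 and 174.6 in wild-type and 197.0, 211.2 and 217.3 in HMGN1-OE libraries at 96 h. The genotypes did not overlap at either time. After scaling it was 1.0 ± 0.22 lower in HMGN1-OE cells at 0 h (log2, adjusted p = 0.00753) and 0.89 ± 0.22 higher at 96 h (adjusted p = 0.0154), and both calls held on deposited values (-0.69 and 0.28). The whole window, summed over its 21 peaks to a single value per library, had 1652 to 1821 RPM (reads relative to the library total as in RPKM, without division by width) in wild-type and 941.4 to 1207 in HMGN1-OE libraries at 0 h, and 1332 to 1791 in wild-type and 1810 to 1930 in HMGN1-OE libraries at 96 h. In a fit across 8419 windows, the sum was lower in HMGN1-OE cells at 0 h by -0.95 ± 0.25 after scaling (adjusted p = 0.0117) and -0.64 as deposited, and its change over time differed between the genotypes by 1.82 ± 0.36 (adjusted p = 0.00341) and 0.90. Over all windows, 51.3% were called for genotype at 0 h, 35.6% at 96 h, 73.9% for time in wild-type cells, 67.1% for time in HMGN1-OE cells and 41.2% for the difference in change. The genotype difference of the window at 0 h lost its call without wild-type replicate 2 at 0 h (-0.82), and that at 96 h without HMGN1-OE replicate 2 or 3 at 96 h (0.88 and 0.79).

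Of the 2 repeat-like windows without a member, chr5:15000001-15200000 was low but followed part of the same order. It had 14.2 to 16.1 RPM in wild-type and 17.7 to 22 in HMGN1-OE libraries at 0 h, and 8.21 to 12.7 in wild-type and 25.8 to 28.7 in HMGN1-OE libraries at 96 h. Its change over time differed between the genotypes by 1.80 ± 0.39 after scaling (adjusted p = 0.00586) and by 0.93 as deposited (adjusted p = 0.000315), and at 0 h the genotypes did not pass the test on either scale. The window chr8:19800001-20000000 had 76.9 to 101.7 RPM, with a difference in change of 0.75 ± 0.10 after scaling (adjusted p = 2e-06) and of -0.16 as deposited, which did not pass.

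A further profile rose more steeply over time than rank 1. Rank 10, chr16:35981687-35981902, had 445.8, 440.9 and 432.4 RPKM in wild-type and 713.6, 650.6 and 671.2 in HMGN1-OE libraries at 0 h, and 1030, 1095 and 1116 in wild-type and 984.5, 1121 and 844.3 in HMGN1-OE libraries at 96 h. Wild-type cells at 0 h were the lowest in every library. In wild-type cells it rose by 1.03 ± 0.15 after scaling (adjusted p = 6.46e-05) and 1.29 as deposited, and in HMGN1-OE cells by 1.18 ± 0.15 (adjusted p = 2.24e-05) and 0.53. Rank 8, also in the rank 1 profile, and 4 of the remaining peaks kept a ratio to it with a CV of 3.56% to 9.15%, all 184 to 503 bp wide, and chr2:72850793-72850976 (rank 36) was among them. In that peak the wild-type libraries went from 88.4 to 91.2 RPKM at 0 h to 207.6 to 232.1 at 96 h. The steepest rise over time in wild-type cells was at chr9:3258606-3259231 (rank 23) on chromosome 9, outside the window and parallel to neither rank 1 nor rank 2, with 103.2 to 107.2 RPKM in wild-type libraries at 0 h and 329.0 to 364.8 at 96 h (1.44 ± 0.13 after scaling and 1.70 as deposited, adjusted p = 6.82e-08 and 1.28e-16).

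**Figure D4:**
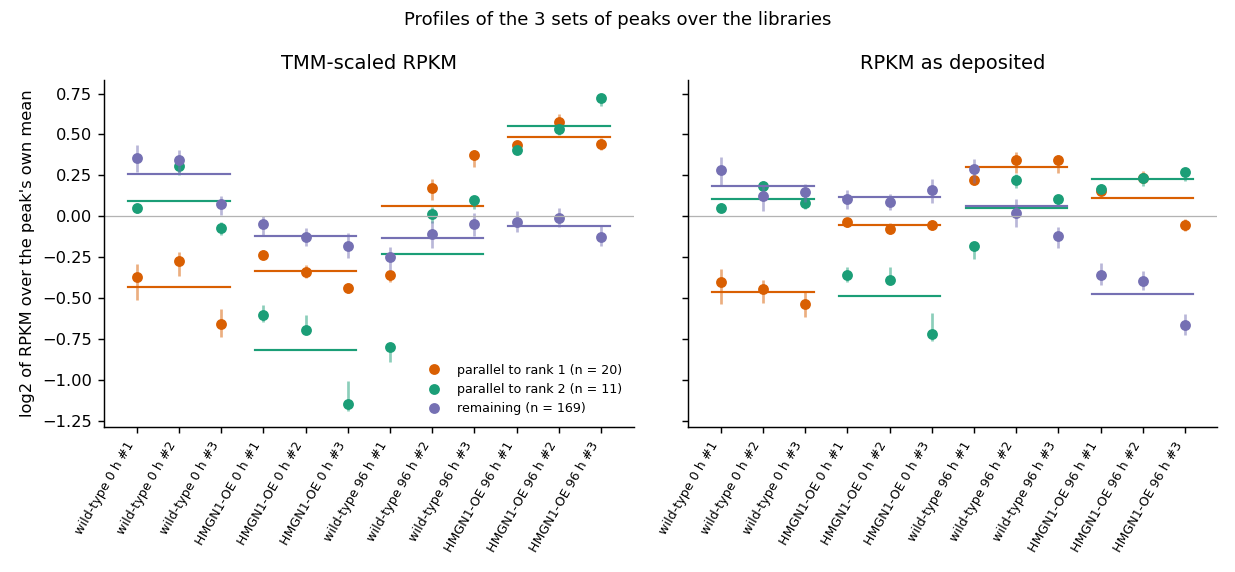
Level of the 3 sets of peaks in each library (x axis) as log2 of RPKM over each peak's own mean (y axis), after scaling (left) and as deposited (right). Points are medians over the peaks of a set, vertical lines their quartiles and horizontal lines the mean of a group's 3 points; on the group means the peaks parallel to rank 1 are lowest in wild-type cells at 0 h, those parallel to rank 2 in HMGN1-OE cells at 0 h, and the remaining 169 change position between the panels.

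The remaining 169 peaks had a greater median width than either profile, and after scaling most changed alike. For genotype at 0 h, 144 were lower and 0 higher, against 14.4% and 8.7% of all tested peaks. For time in wild-type cells, 143 were lower and 8 higher (30.7% and 33.2%). The change over time was more positive in HMGN1-OE cells for 127 and more negative for 1 (11.0% and 6.1%). As deposited, 1 was lower and 11 were higher for genotype at 0 h, against 2.61% and 14.2% of all tested peaks. Over time in wild-type cells, 36 were lower and 14 higher (17.8% and 37.1%). The difference in change was called more positive for 1 and more negative for 106 (0.853% and 46.0%), so its direction depended on the scale. Some of the 169 differed from the rest. Their median ratio CV of 9.53% went along with values up to 77.8% for single pairs, and after scaling their changes over time in wild-type cells ran from -1.10 to 1.44. Their median width was 847 bp and the highest was rank 10. They took 4.84% to 5.35% of the reads in peaks in wild-type libraries at 0 h, 4.4% to 4.66% in HMGN1-OE libraries at 0 h, 4.26% to 4.70% in wild-type and 4.69% to 4.91% in HMGN1-OE libraries at 96 h. At 0 h, all wild-type libraries thus lay above all HMGN1-OE libraries as a share of reads in peaks, but the genotypes overlapped as a share of the library total (1.86% to 2.07% and 1.85% to 1.93%). In each library, rank 1 could be set against the sum of these 169 peaks. At 0 h it held 0.704 ± 0.034 times their reads for wild-type and 0.945 ± 0.028 times for HMGN1-OE (mean ± SD of 3 libraries), and at 96 h 1.29 ± 0.24 and 1.53 ± 0.035 times, with no overlap between the times.

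For genotype at 0 h, the question was whether chromatin differed before differentiation. Most of the 200 peaks lay slightly lower in HMGN1-OE cells relative to other peaks. After scaling, 154 of the 200 were called lower and 0 higher (77% and 0%), against 14.4% and 8.7% of all tested peaks. On deposited values, 11 were lower and 29 higher (5.5% and 14.5%), against 2.61% and 14.2% of all tested peaks. The share called higher was thus near that of all tested peaks, and 18 of the 29 belonged to the rank 1 profile. Relative to the median of all peaks, the members' median was lower on both scales, by -0.35 and -0.27. The differences were small, and 0 of the 200 had a called change over 1 on the log2 scale, as 1940 of all tested peaks did. Only 6 were called under each of the 5 scalings tried, all lower and all parallel to rank 2, which is 3% against 2.59% of all peaks. Leaving out wild-type replicate 1 at 96 h raised the count of higher calls from 0 to 6.

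At 96 h the number of peaks that differed between the genotypes, and their direction, depended on the scale. After scaling, 41 were called higher in HMGN1-OE cells and 2 lower, against 10.8% and 11.2% of all tested peaks, and the median was 0.11. As deposited, 3 were higher and 162 lower, against 2.02% and 46.9%. Relative to the median of all peaks the members were at 0.09 and -0.02. The 41 fell to 23 without wild-type replicate 1, to 22 without HMGN1-OE replicate 2 and to 25 without HMGN1-OE replicate 3 at 96 h. Under all 5 scalings, 3 were higher (2.02% of all peaks were), all of them in the chromosome 9 window, and 2 were lower (11.1% of all peaks were), both in the chromosome X window. Of these, chrX:166428959-166429678 had 149.1 to 193.9 RPKM in wild-type and 74.0 to 85.0 in HMGN1-OE libraries at 96 h, a difference of -0.47 ± 0.064 after scaling (adjusted p = 4.17e-05) and -1.07 as deposited. At 0 h the libraries of the genotypes were at 159.8 to 178.8 and 198.3 to 210.1 RPKM, and the test was not passed on either scale.

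Over the 96 h in wild-type cells, the question was how accessibility changed with maturation. Here the profiles parted. After scaling, 143 of the 200 were called lower and 26 higher, against 30.7% and 33.2% of all tested peaks, and the 26 were 18 peaks of the rank 1 profile and 8 others. As deposited, 36 were lower and 34 higher, against 17.8% and 37.1%. The members lay below the median of all peaks on both scales, by -0.35 and -0.30. The 26 became 12 without wild-type replicate 3 at 0 h. Under all 5 scalings, 25 rose (33.2% of all peaks did) and 36 fell (17.7% did). The steepest fall was at chr7:52272762-52273427 (rank 87), which had 180.1, 165.2 and 151.6 RPKM at 0 h and 99.1, 93.3 and 85.1 at 96 h (-1.10 ± 0.105 after scaling, adjusted p = 2.57e-08, and -0.83 as deposited). Next came chr2:32985942-32987073 (rank 191, -0.95 ± 0.087) and chr7:91040233-91040984 (rank 134, -0.92 ± 0.074).

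In HMGN1-OE cells over the same time, 73 of the 200 were called higher and 13 lower after scaling, against 32.0% and 27.0% of all tested peaks. As deposited, 24 were higher and 151 lower, against 18.4% and 52.2%, and relative to the median of all peaks the members were at 0.09 and -0.03. The 13 became 7 without HMGN1-OE replicate 1 at 0 h. Under all 5 scalings, 24 rose (18.4% of all peaks did), and these were the 11 peaks of the rank 2 profile, 6 of the rank 1 profile and 7 others. The largest increase was at chr9:3023154-3023661 (rank 131) in the chromosome 9 window, from 60.3 to 75.2 RPKM at 0 h to 121.5 to 129.5 at 96 h (1.5 ± 0.21 after scaling, adjusted p = 5.07e-05). Under all 5 scalings 13 fell, as did 27.0% of all peaks. The largest fall was again at chrX:166428959-166429678 (-0.69 ± 0.064, adjusted p = 1.96e-08), followed by chr9:108893509-108894117 (rank 171, -0.35 ± 0.072) and chr7:150254749-150255569 (rank 121, -0.34 ± 0.073).

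**Figure D5:**
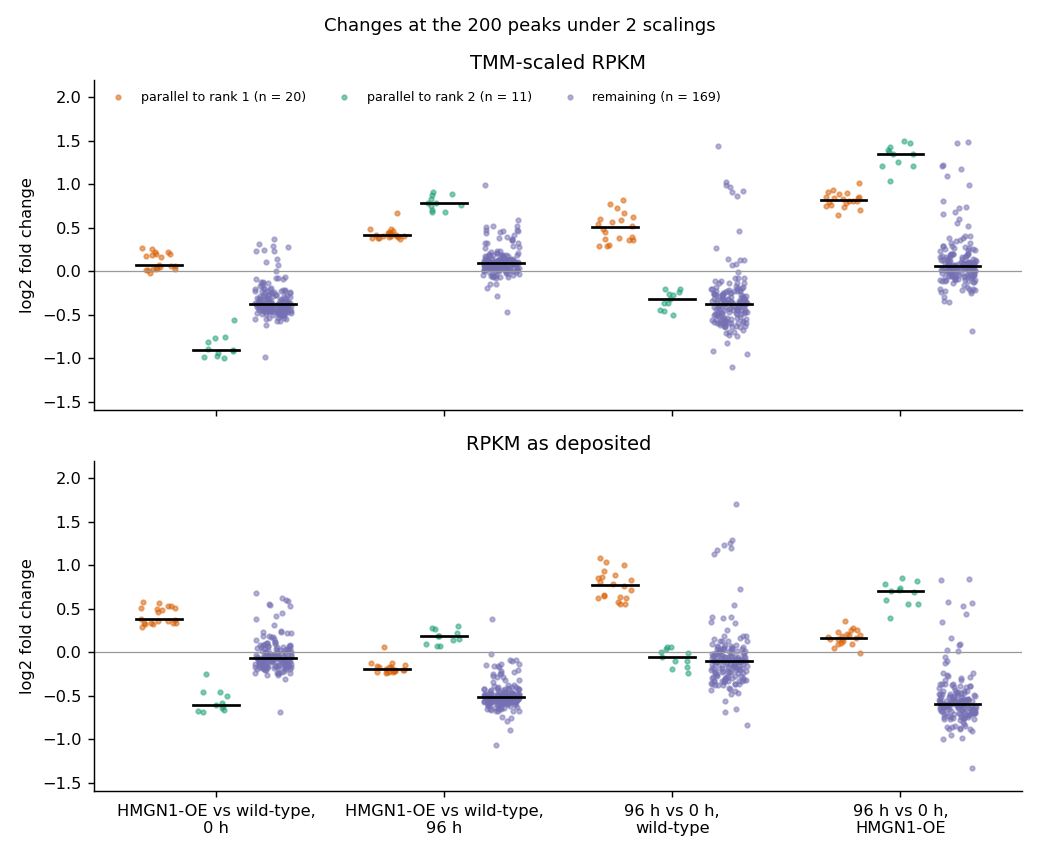
Log2 fold changes (y axis) of the 200 peaks in the 4 comparisons (x axis), after scaling (upper panel) and as deposited (lower panel). Each point is a peak and black bars are the medians of the 3 sets; in both panels the rank 2 profile is lowest for HMGN1-OE against wild-type at 0 h (medians -0.91 and -0.61) and highest for 96 h against 0 h in HMGN1-OE cells (1.35 and 0.71).

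The test of a different change over time in the 2 genotypes gave 138 of the 200 peaks with a more positive change in HMGN1-OE cells and 1 with a more negative one after scaling, against 11.0% and 6.1% of all tested peaks. As deposited the split was 11 and 126, against 0.853% and 46.0%. Relative to the median of all peaks, the members were higher on both scales, by 0.43 and 0.23. Under all 5 scalings, 11 were more positive (5.5%, against 0.851% of all peaks), namely 10 of the 11 peaks of the rank 2 profile and chr9:3035645-3036749, and 1 was more negative, chrX:166428959-166429678. At chr9:3035645-3036749 the change differed by 1.98 ± 0.37 after scaling (adjusted p = 0.0052) and 1.07 as deposited. The 3 wild-type peaks with the steepest falls had differences of 0.85 to 0.87 after scaling and of -0.06 to -0.04 as deposited. These comparisons share libraries with the pairwise ones and are not separate evidence.

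In each of the 4 pairwise comparisons, called changes over 1 on the log2 scale were less frequent among the 200 than among all tested peaks. The rank 2 profile was an exception only for time in HMGN1-OE cells. After scaling there were 0 and 0 of 200 for genotype at 0 h and 96 h, 3 for time in wild-type and 18 for time in HMGN1-OE cells, of which 11 were the rank 2 profile. Among all tested peaks such changes made up 3.37%, 4.29%, 28.5% and 27.6%. A single member passed none of the 4 pairwise tests after scaling, as did 11735 of the 57576 tested peaks.

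The spread between replicate libraries depended on the profile and on the scale. The residual SD within groups on the log2 scale had a median of 0.116 over the 200 peaks after scaling (quartiles 0.10 and 0.150) and of 0.217 over the peaks outside. Counting error alone, on log2 of reads, would give about 0.027 in the 200, where the median was 2832 reads per library, and 0.211 outside. The residual SD was taken with 1 added to RPKM, which shrinks it at low levels (median 3.79 RPKM outside). The 2 values outside are therefore not on the same scale. For the remaining 169 peaks the median residual SD was 0.112 after scaling and 0.148 as deposited. For the 2 profiles the order was the opposite, with 0.227 after scaling and 0.091 as deposited for the peaks parallel to rank 1, and 0.305 and 0.144 for those parallel to rank 2. Replicates of the 2 profiles thus differed less per library total, and replicates of the other members differed less after scaling to the typical peak. What share of a library lay in peaks moved with this, and its part in the result was not tested.

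The largest residual SD after scaling belonged to chr9:3035645-3036749 (0.36), chr6:103599064-103599286 (0.35) and chr9:3026282-3027809 (0.32), all parallel or nearly parallel to rank 2. The smallest belonged to chr7:38974164-38975096 (0.042), chr6:70794063-70794696 (0.055) and chr9:44204827-44205463 (0.071). The first of these had 136.6, 137.0 and 128.3 scaled RPKM in wild-type libraries at 0 h and 181.0, 189.2 and 184.1 at 96 h, and 101.0, 100.6 and 106.8 in HMGN1-OE libraries at 0 h and 178.4, 185.7 and 178.9 at 96 h. It rose with time in both genotypes after scaling (0.46 ± 0.055 and 0.81 ± 0.055), and as deposited in wild-type cells only (0.73, against 0.16 with adjusted p = 0.233 in HMGN1-OE cells). The second had 84.4 to 108.9 scaled RPKM over the 12 libraries, with wild-type cells at 0 h highest. Its differences after scaling were small but passed the test for genotype at 0 h (-0.20 ± 0.061, adjusted p = 0.0206) and for time in wild-type cells (-0.23 ± 0.061, adjusted p = 0.00237). Neither of these passed as deposited. On deposited values it was instead lower in HMGN1-OE cells at 96 h (-0.57, adjusted p = 0.000411) and fell over time in HMGN1-OE cells (-0.65, adjusted p = 3.0e-05), and neither of these passed after scaling.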

How the data were processed

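ATAC-seq libraries of 3 replicates in each of 4 groups were analysed from 1 table of peaks. Per the study's methods, nuclei of 100000 cells per library were processed by Omni-ATAC, reads were aligned with BWA and peaks called with MACS within ChiLin, and the build (mm9) comes from the submitters' processing notes. The treatment of duplicate reads and of reads with several placements, which bears on the highest peaks, is not given in the sources used here. All deposited values were RPKM computed by the authors. RPKM times peak width gave whole reads for 100% of values (tolerance 0.001 reads), from which reads and library totals were recovered. Coordinates are 1-based.

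Peaks were tested with limma 3.58.1 in R 4.3.3 (trend, robust) on log2(RPKM + 1). The added 1 understates fold changes, slightly in the 200 peaks and more in low peaks (median outside the 200, 3.79 RPKM). RPKM was TMM-scaled (30% and 5% trimmed), all 12 libraries entered 1 fit of 4 group means without a block, and Benjamini-Hochberg adjusted p-values, two-sided, were taken over the 57576 peaks that reached the equivalent of 10 reads in at least 3 libraries and 15 reads in all. Calls required an adjusted p under 0.05. The same fit was made on the reads of all listed peaks in 200 kb windows. The fit across peaks was also run on simulated libraries with near-equal shares of reads in peaks. That run does not cover the unequal shares of these libraries (24.7% to 50%). The scalings compared were TMM, deposited RPKM, median-ratio (RLE) factors, reads in peaks, and TMM relative to library totals, the last added after seeing the data. Other pseudocounts, filters, limma-voom, a replicate block, other memberships and leaving out each library were also tried. No 2 replicates agreed within sampling noise (chi-square per degree of freedom 1.95 to 4.45). Where libraries of a genotype share a line, p-values cover only the spread between these libraries.

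The members, windows, profiles and lists were chosen with earlier results of these data known. Named peaks are the 10 highest, the 3 largest called changes in each direction whose groups do not overlap (not required for the interaction) with at most 1 per window, the 3 with the largest and smallest residual SD, and ranks 198 to 203. Ranks 20 and 36 of the profiles and the X window follow the profiles or the window rule. The limit of 10% on ratio CVs was set after the values had been seen. Promoter markers of myeloid maturity were not checked, since no annotation of mm9 was used here. Figures were drawn with matplotlib 3.10.9.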

Additional observations from a re-analysis of the deposited data

Results flagged for a closer look

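Peaks and windows named in the report were listed here where their change over 96 h differed between the genotypes (interaction of the fit across all peaks or windows, adjusted p under 0.05, TMM-scaled). Values are log2 differences, HMGN1-OE change minus wild-type change, each on 3 libraries a group. In the rank 2 profile and the chromosome 9 window they were 1.45 at chr2:98506405-98507475, 1.58 at chr9:35112804-35113176, 1.47 at chr2:98502399-98503096, 1.67 at chr12:3109875-3110109 and 1.24 at chr6:103599064-103599286. Within the window they were 1.89 at chr9:3025191-3025943, 1.77 at chr9:3023154-3023661, 1.89 at chr9:3026282-3027809 and 1.98 at chr9:3035645-3036749, and 1.82 for the window as a whole. As deposited all of these remained positive, and 0.32 at chr6:103599064-103599286 was the only one that did not pass the test (adjusted p = 0.0911).

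Other peaks depended on the scale. The differences were 0.87 at chr7:52272762-52273427, 0.85 at chr2:32985942-32987073, 0.87 at chr7:91040233-91040984, 0.47 at chr9:108893509-108894117, 0.40 at chr7:150254749-150255569, 0.35 at chr7:38974164-38975096 and 0.38 at chr9:44204827-44205463. As deposited these 7 were between -0.57 and -0.04. The difference at chrX:166428959-166429678 was -0.40 after scaling and -1.32 as deposited. The windows without a member had 1.80 (chr5:15000001-15200000, 0.93 as deposited) and 0.75 (chr8:19800001-20000000, -0.16 as deposited). The share of reads in peaks, 24.7% to 29.5% in HMGN1-OE at 96 h and 35.1% to 50% in wild-type at 96 h, moved with the scale, and its part in these differences was not tested.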

How the results depend on the processing

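The scaling mattered most. On RPKM as deposited, the shares of the 200 peaks called higher and lower were 14.5% and 5.5% for genotype at 0 h, 1.5% and 81% for genotype at 96 h, 18% lower for time in wild-type cells, 12% and 75.5% for time in HMGN1-OE cells, and 5.5% and 63% for the difference in change. Scaled to reads in peaks, 2.5% were higher at 0 h, 3% lower at 96 h, 20% lower over time in HMGN1-OE cells and 1% more negative in their change. RLE factors and TMM on library totals each gave 0.5% higher at 0 h. Fitting only the groups compared gave 2.5% higher at 0 h and 11.5% higher at 96 h. With the 100 highest peaks, 2% were lower at 96 h, 21% higher over time in wild-type cells and 1% more negative in their change, and with the 400 highest 7.25% and 0.25% for the last 2. Without the members of windows with 3 or more, their share of reads in HMGN1-OE at 96 h was 15.25%.

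Leaving out each library in turn gave ranges of 0% to 3% higher and 59.5% to 78.5% lower for genotype at 0 h, 11% to 29.5% and 1% to 1.5% at 96 h, 6% to 17% and 64% to 76% for time in wild-type cells, 29.5% to 42% and 3.5% to 8% for time in HMGN1-OE cells, and 55% to 79.5% and 0.5% to 0.5% for the difference in change. The group means of the share of reads in peaks ranged from 10.65% to 11.35%, 10.42% to 10.94%, 11.97% to 14.09% and 15.56% to 15.98% in wild-type and HMGN1-OE at 0 h and then at 96 h. The other 245 alternative values of these results stayed within 1.5 times the main value or within 1 SD. Of the alternatives for single peaks and windows, 615 kept direction and call, 21 lost the call, and 1 turned, the chromosome X window for genotype at 0 h as deposited (0.000485). Same-numbered replicates did not deviate together over all tested peaks (correlations of -0.037 to 0.058). Most of these peaks held few reads (median 41 per library outside the 200), so this check cannot exclude a shared batch. With the replicate number as a block, the shares called were 0% and 76.5%, 18% and 1%, 12% and 72%, 37% and 6%, and 69% and 0.5% in the order above. A count of peaks parallel to each other rests on the limit of 10%, and 4 and 1 further members had ratio CVs between 10% and 12%.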
